A study of Mus musculus with 10 samples.

Results

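The naive-like cells of day 4 (d4) embryoid bodies (EB) were 373 of the 3115 single cells profiled in R1 WT and *Mll3/4* dCD EB. A cell was counted as naive-like when it held at least 3 UMIs (unique molecular identifiers, each standing for 1 captured transcript) of *Zfp42* and at least 1 UMI in 3 or more of *Klf4*, *Zfp57*, *Esrrb*, *Fgf4*, *Nr0b1* and *Tcl1*. Cells in which 2 or more of the primordial germ cell (PGC) genes *Prdm1*, *Nanos3* and *Dnd1* were detected were left out, as were cells with 5 or more UMIs summed over *Gm21761*, *Gm8300* and *Zscan4d*, which mark 2-cell-like cells. This gave 100 of 1416 WT cells (7.06%, 95% Clopper-Pearson interval 5.78 to 8.52) and 273 of 1699 dCD cells (16.1%, 14.4 to 17.9). Both intervals cover counting error only, since each genotype had 1 library.

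R1 is a male mouse ESC line, and dCD is 1 clonal line made from it whose MLL3 (*Kmt2c*) and MLL4 (*Kmt2d*) proteins carry amino acid changes that inactivate their catalytic domains. These enzymes place H3K4me1, a histone mark of enhancers. Both lines were adapted to 2i plus LIF, turned into epiblast-like cells (EpiLC) and then grown in suspension for 4 days with BMP4, SCF, LIF and EGF, a protocol that yields primordial germ cell-like cells (PGCLC) among extraembryonic-like cells. Droplet-based 3′ scRNA-seq (10x Genomics) was run on dissociated EB, and no sorting step is described. The comparison asks how cells with a naive expression program differ when the EB carry the dCD alleles, and with 1 library and 1 clone per genotype, library, clone and genotype cannot be told apart. No test was therefore possible. A level is given as counts per 1000000 (CPM) of the UMIs summed over the cells of a group, with a 95% Poisson interval, and a ratio with its exact conditional interval, and genes are counted as higher or lower by a fixed size of 2-fold.

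Naive pluripotency is the state of the epiblast before implantation and of mouse ESC in 2i plus LIF. It is held by a network of transcription factors that includes *Esrrb*, *Klf4*, *Tfcp2l1* and *Nanog*, with *Zfp42* (also called *Rex1*) as a widely used marker. The program is shut down when cells become formative, and a large share of it is used again by early germ cells, so that naive ESC and PGC have many genes in common. Genes such as *Prdm1*, *Nanos3* and *Dnd1* separate the germ cells.

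The naive-like cells held a median of 16112 UMIs in WT and 15784 in dCD, against 13010 and 11304 in the remaining cells of the same libraries, and 0 barcodes were shared between the libraries. *Kmt2c* stood at 96.5 CPM in WT and 87.9 in dCD naive-like cells and *Kmt2d* at 25.5 and 21.9, so the transcripts of both mutated genes were present at similar levels, and the counts do not show the amino acid changes. Scrublet marked 3 of the 100 WT and 4 of the 273 dCD cells as doublets. Some cells stood apart from the others of their class. In 12 WT and 13 dCD naive-like cells, 12 genes of the extraembryonic mesoderm (such as *Hand1*, *Col1a1* and *Pitx1*) summed to 500 CPM or more. These 12 WT cells had a median of 27570 UMIs against 15614 in the other 88, and their 7 rule genes summed to 920 CPM against 1542. The corresponding medians in dCD were 32104 and 15652 UMIs, with 828 against 1414 CPM of rule genes. Scrublet marked 2 of the 12 and 3 of the 13. The gene lists and the genes lowest in dCD are also given without them where the counts differ, and whether they were doublets was not tested further.

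A second set of cells stood apart by chromosome. In 93 of 273 dCD naive-like cells (34.1%), chromosome 6 supplied a share of UMIs more than 25% above that of the median WT naive-like cell, a level that 0 of 100 WT naive-like cells and 134 of 1426 remaining dCD cells (9.40%) reached. Over 209 genes of chromosome 6, the median gene was 1.28 times higher in these 93 cells than in the other 180, and 202 of the 209 were higher. The 93 cells were chosen by the summed share of these same genes, so a higher level of the genes as a group was set by that choice. For chromosome 8, 8 of 100 WT and 0 of 273 dCD naive-like cells were above this mark, and for chromosome 19, 17 of 100 WT and 25 of 273 dCD cells were. On the lower side of chromosome 8, the 5th percentile was 0.79 times the median WT share in dCD and 0.92 times in WT naive-like cells. No comparison left out cells for an excess of chromosome 19 or a low share of chromosome 8. The main results are therefore also given for the 180 dCD cells at or below this mark for chromosome 6, called cells without excess below. Of the 273 dCD cells, 148 (54.2%) had a larger share from chromosome 6 than any WT naive-like cell. Some of the 180 thus still carried a smaller excess. Low shares from chromosome 8 also occurred among them, as in a cell at 0.80 times the median WT share and at 1.23 times for chromosome 6.

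The label was checked against genes that the rule did not use. Of 16 other genes of the naive program, 15 were at least 2-fold higher in naive-like than in remaining cells in WT, against 8.12% of all genes, and 15 in dCD, against 4.68%. *Dppa5a*, an RNA-binding protein abundant in naive cells, stood at 4294 CPM (interval 4196 to 4394) in WT naive-like cells and 325 in the remaining WT cells, and at 4762 (4699 to 4824) and 1185 in dCD. *Tfcp2l1*, a LIF-responsive naive factor, stood at 154.6 against 10.9 CPM in WT and at 164.6 against 24.1 in dCD. *Tdh*, the threonine dehydrogenase on which mouse ESC rely, stood at 515 against 43.5 CPM in WT and at 419 against 58.5 in dCD. The exception to the 2-fold difference was *Tbx3*, at 269 CPM in WT naive-like cells and 246 in the remaining WT cells. The cells thus carried the naive program at a higher level than the remaining cells of their library. PGC marker cells, with 2 or more of *Prdm1*, *Nanos3* and *Dnd1* detected, are part of the remaining cells. The 16 genes summed to 7115 CPM in WT naive-like cells and 2991 in WT PGC marker cells. In dCD these sums were closer, at 7550 and 5453 CPM. The check against all remaining cells therefore does not by itself separate naive-like from PGC marker cells. These contrasts follow from how the cells were chosen and are a description.

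The 12 leading genes outside the rule, by the smaller of the ratios to the remaining cells in the 2 libraries, included *Gm46332*, which was 95.4 times higher in WT and 20.4 times in dCD. *Cobl*, an actin nucleator, was 33.1 and 11.6 times higher. *Morc1*, which silences transposons in the male germline, was 17.0 and 7.88 times higher, and *Ooep*, of the maternal complex of the oocyte cortex, 22.5 and 7.48 times. The ratios were smaller in dCD for 11 of these 12 genes, and *Gm14820* was the exception with 12.4 and 16.5.

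Many naive-like cells also carried germ cell transcripts, some detected more often in WT and some in dCD. *Nanos3*, which protects PGC from cell death, was detected in 44 of 100 WT and 28 of 273 dCD naive-like cells, and *Tfap2c*, a PGC specification factor, in 72 (72.0%) and 126 (46.2%). *Dppa3* was detected in 21 WT and 28 dCD cells (10.3%). The opposite held for *Dnd1*, detected in 8 WT and 58 dCD cells (21.2%), for *Prdm1*, in 7 and 36 (13.2%), and for *Prdm14*, a factor shared by naive cells and PGC, in 13 and 54 (19.8%). The rule left out cells with 2 or more of *Prdm1*, *Nanos3* and *Dnd1*, so a naive-like cell with *Nanos3* could hold neither *Prdm1* nor *Dnd1*. The shares of these genes are therefore tied to each other by the rule. Outside the naive-like, PGC marker and 2-cell-like cells, *Tfap2c* was detected in 8.07% of WT cells (median 12834 UMIs) and in 210 of 1313 dCD cells (11109 UMIs). Only 41 of the 100 WT cells lacked all 3 germ cell genes of the rule, against 151 of 273 in dCD (55.3%). The 389 genes that the study lists as PGCLC genes, of which 386 were found here, summed to 24618 CPM in WT naive-like cells, above the 17228 CPM of the 126 WT cells with 2 or more of the 3 PGC genes. In dCD these sums were 24041 and 20795 CPM. The ESC genes of the study set the classes further apart, with 17376 CPM in WT naive-like and 8830 in WT PGC marker cells. In dCD the classes were closer, at 20530 and 15675 CPM.

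The threshold on *Zfp42* was crossed with room in most cells. The naive-like cells held 3 to 30 *Zfp42* UMIs in WT (median 12) and 3 to 39 in dCD (median 11). Just inside, 2 WT and 17 dCD cells held 3 UMIs, and just outside, 3 WT and 11 dCD cells held 2 and met the other conditions. The number of further markers was the tighter condition, with 29 WT and 73 dCD cells at exactly 3 of the 6 markers and 17 and 55 cells left out at 2. The germ cell condition alone removed 20 WT and 40 dCD cells.

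The genes of the rule stood at similar levels in both genotypes. *Zfp42* was at 772 CPM (interval 731 to 815) in WT and 676 (653 to 700) in dCD naive-like cells, *Klf4* at 208 (187 to 231) and 221 (208 to 235), and *Esrrb* at 79.4 (66.5 to 94.0) and 84.5 (76.4 to 93.2). *Fgf4*, the FGF ligand of the early epiblast, was at 66.9 (55.2 to 80.5) and 98.8 (89.99 to 108), and *Nr0b1*, an orphan nuclear receptor, at 69.3 (57.3 to 83.0) and 58.5 (51.8 to 65.9). None of the 7 differed by 2-fold, which the shared rule favours.

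Across all genes, 10736 had at least 20 UMIs over the naive-like cells of both libraries. Of these, 244 (2.27%) were at least 2-fold lower and 733 (6.83%) at least 2-fold higher in dCD than in WT, and the median log2 ratio of all genes was 0.04. The interval of the ratio excluded 1 for 241 of the 244 and for 626 of the 733. Without the 25 cells rich in mesoderm UMIs, 205 genes were lower and 911 higher, and 155 of the 244 and 608 of the 733 were the same genes. Without the cells that had an excess of chromosome 6 or 8, the counts were 224 and 572. Of the 244 lower genes, 75 (30.7%) were also at least 2-fold lower in the remaining cells, and of the 733 higher genes 233 (31.8%) were also higher there. In the remaining cells, 550 of 14531 measured genes (3.79%) were lower and 1038 (7.14%) higher in dCD.

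Most of the 16 naive genes outside the rule were within 2-fold between the genotypes. Of these, 0 were 2-fold lower and 1 was higher in dCD (*Jam2*, a junctional adhesion molecule, at 63.4 and 128 CPM), against 2.27% and 6.83% of all genes, with a median log2 ratio of −0.13. Without the cells rich in mesoderm UMIs 1 was lower and 1 higher. *Tfcp2l1* was 1.07 times (0.92 to 1.23) and *Tbx3* 0.99 times (0.89 to 1.10) the WT level. *Klf5* was higher, at 195 CPM in WT and 314 in dCD, and *Gbx2* lower, at 34.9 and 19.2 CPM, both by less than 2-fold. Ranked by cell, the summed share of these 16 genes was 0.75% of the UMIs of the median WT cell and 0.758% of the median dCD cell, and 140 of 273 dCD cells were above the WT median. In the remaining cells, by contrast, 8 of the 16 were at least 2-fold higher in dCD, against 7.14% of all genes there, with a median log2 ratio of 1.03. The larger set of ESC genes of the study differed more in the naive-like cells. Of 482 measured, 86 were at least 2-fold higher and 13 lower, against 6.83% and 2.27% of all genes, with a median log2 ratio of 0.33, and 225 of 273 dCD cells were above the median WT cell in their summed share.

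**Figure D1:**
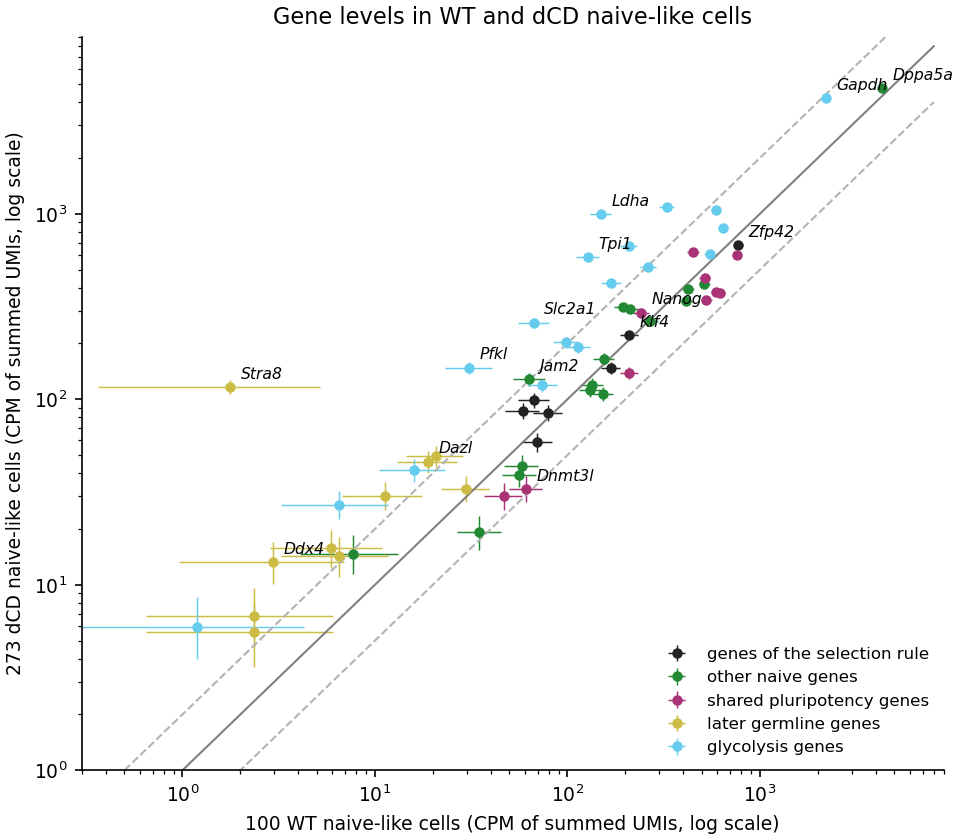
Level of each gene in the 100 WT (x axis) and 273 dCD (y axis) naive-like cells, in CPM of summed UMIs on log axes, with 95% Poisson intervals as bars. The solid line marks equal levels and the dashed lines 2-fold. The genes of the rule and the other naive genes lie along the line, while *Ldha* (149 and 994 CPM) and *Stra8* (1.78 and 117 CPM) lie far above it.

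Genes that naive cells share with later pluripotent states were lower by less than 2-fold. The median log2 ratio of 10 such genes was −0.60, with 0 past 2-fold in either direction, and with 1 lower, *Dnmt3l*, without the cells rich in mesoderm UMIs. *Pou5f1* (Oct4) was at 757 CPM in WT and 601 in dCD, *Sox2* at 517 and 449, and *Utf1*, a chromatin-bound pluripotency factor, at 525 and 342. *Rif1*, a regulator of replication timing, was at 624 and 372 CPM. *Dnmt3l*, the cofactor of the de novo DNA methyltransferases, had the lowest ratio of the 10, at 61.0 and 32.8 CPM. *Nanog* (242 and 293) and *Tdgf1*, a Nodal co-receptor (447 and 622), were higher in dCD. *Nanog* lies on chromosome 6, and in the 180 dCD cells without excess it was at 257 CPM. The summed share of the 10 genes was 0.428% of UMIs in the median WT and 0.320% in the median dCD cell, and 80 of 100 WT cells were above the dCD median.

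Formative and primed genes were mostly within 2-fold. Of 10 measured genes 2 were 2-fold lower and 0 higher, against 2.27% and 6.83% of all genes, with a median log2 ratio of −0.19. Without the cells rich in mesoderm UMIs 3 of 9 were lower. *Foxd3*, a factor that takes part in the exit from naive pluripotency, stood at 29.0 CPM in WT and 7.66 in dCD, a 0.26-fold level (0.17 to 0.41), and was at 32.2 and 8.02 CPM without the cells rich in mesoderm UMIs. *Lef1*, a mediator of Wnt signalling, was at 24.3 and 6.17 CPM, and 25 of its 41 WT UMIs came from the 12 WT cells rich in mesoderm UMIs. *Otx2* (37.9 and 33.2 CPM) and *Tcf15* (152 and 147 CPM), both formative factors, had ratios whose intervals included 1.

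The difference was larger for glycolysis genes than for those of the mitochondrial genome, and other metabolic groups were not examined as lists. All 18 glycolysis genes had a higher level in dCD naive-like cells, 11 of them by at least 2-fold against 6.83% of all genes, with a median log2 ratio of 1.33. Their sum was 5631 CPM (interval 5518 to 5745) in WT and 11949 (11851 to 12048) in dCD. *Ldha*, the lactate dehydrogenase subunit, was 6.66 times higher (5.87 to 7.59), at 149 and 994 CPM. *Pfkl*, a phosphofructokinase of the committed step, was at 30.8 and 148 CPM, 4.80 times higher (3.62 to 6.497), and the isomerase gene *Tpi1* at 127 and 583 CPM, 4.58 times higher (3.98 to 5.28). *Slc2a1*, the glucose transporter GLUT1, was at 66.9 and 259 CPM, 3.87 times higher (3.19 to 4.74). *Slc16a3*, the lactate exporter MCT4, was not on the list but among the 12 genes with the highest ratio of dCD over WT, at 2.96 CPM (5 UMIs) and 69.8 CPM. The genes closest to equal levels were *Ldhb* (550 and 606 CPM) and *Pgam1* (643 and 837 CPM).

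The difference in glycolysis genes ran through nearly all cells rather than a few. They took 0.560% of the UMIs of the median WT cell (range 0.172 to 0.871) and 1.17% of the median dCD cell (0.511 to 2.52). Of the 273 dCD cells, 272 were above the median WT cell and 241 above the highest WT cell. The sum was 11206 CPM in the 180 dCD cells without excess chromosome 6, which carries *Gapdh* and *Tpi1*, and *Ldha* was at 1007 CPM there. Without the cells rich in mesoderm UMIs the sums were 5799 and 11965 CPM, with 10 of 18 genes at least 2-fold higher. The remaining cells showed a sum ratio of 2.17 beside 2.12 in the naive-like cells, so the group as a whole was higher by a similar factor in both. *Slc2a1* was an exception, at 246 CPM in the remaining WT and 203 in the remaining dCD cells. Transcripts of the mitochondrial genome were also higher, at 61566 and 78182 CPM, with 0 of 13 past 2-fold, and their part in these ratios was not tested.

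**Figure D2:**
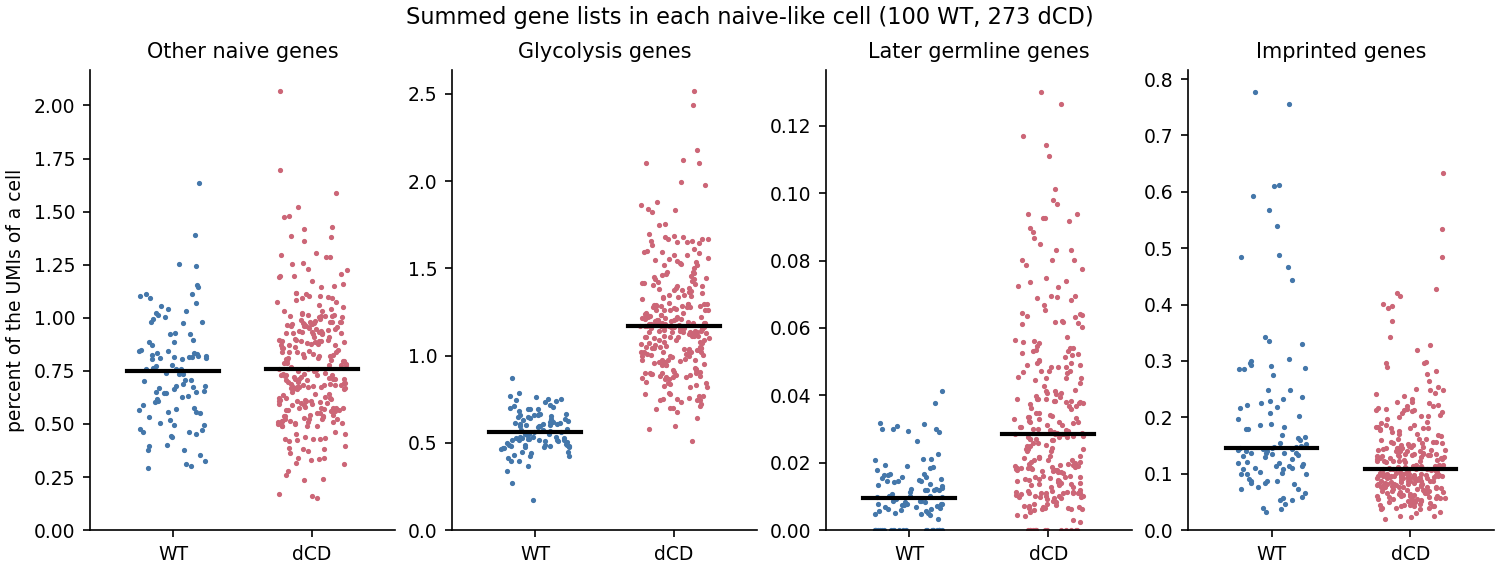
Share of UMIs (percent, y axis) that the other naive, glycolysis, later germline and imprinted genes took in each of the 100 WT and 273 dCD naive-like cells; each point is 1 cell and each bar the median. The glycolysis values hardly overlap (241 dCD cells above the highest WT cell), the naive values overlap over nearly their whole range, and 76 of 100 WT cells lie above the dCD median for imprinted genes.

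Genes that germ cells normally switch on after they reach the gonad were higher in dCD naive-like cells. Of 16 such genes 11 had enough UMIs, and 9 of the 11 were at least 2-fold higher against 6.83% of all genes, 0 lower, with a median log2 ratio of 1.24. The count was 8 of 11 without the cells rich in mesoderm UMIs. *Stra8*, the gene that retinoic acid induces at the entry into meiosis (chr6:34920163-34939344, GRCm38), had the highest log2 ratio (5.41) among genes with at least 50 UMIs. It had 3 UMIs in WT (1.78 CPM) and 548 in dCD (117 CPM), 65.7 times higher with a wide interval (22.4 to 319). *Sycp3*, of the synaptonemal complex, was at 20.7 and 49.2 CPM, 2.37 times higher (1.66 to 3.49). *Dazl*, a germ cell RNA-binding protein, was at 18.95 and 46.2 CPM, and *Hormad1*, of the meiotic chromosome axis, at 11.3 and 30.2 CPM. *Ddx4* (Vasa), a germ cell helicase, was at 2.96 CPM (5 UMIs) and 13.2 CPM. *Taf7l*, a germ cell variant of a TFIID subunit, had 0 UMIs in WT and 41 in dCD, at least 4.91 times higher against a floor of 3 counts over the WT group. *Tex19.1* was at 29.6 and 32.8 CPM.

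*Stra8* was spread over many cells. It was detected in 137 of 273 dCD naive-like cells (50.2%, interval 44.1 to 56.3), with at most 18 UMIs in a cell, and in 3 of 100 WT cells (3.00%, 0.62 to 8.52). With every cell thinned to 6831 UMIs, it was detected in 93 of 265 dCD (35.1%) and 0 of 98 WT naive-like cells, which allows a share of up to 3.06%. Outside the naive-like, PGC marker and 2-cell-like cells, the cells were shallower, and it was found in 0 of 1190 WT cells. This allows a share of up to 0.252%. In dCD it was found in 328 of 1313 such cells. Its log2 ratio was 5.41 in naive-like and 6.02 in remaining cells, and the part of free RNA in these counts was not tested. The dCD naive-like cells with and without a *Stra8* UMI had like sums of naive rule genes (1361 and 1387 CPM) and of glycolysis genes (12228 and 11608 CPM). *Stra8* lies on chromosome 6, and it stood at 111 CPM in the 180 dCD cells without excess. In the remaining cells the list as a whole differed more, with 14 of 16 genes at least 2-fold higher and a median log2 ratio of 2.37. All 16 were measured there and 11 in the naive-like cells, so the medians cover unlike sets of genes. The list summed to 103 CPM in WT naive-like cells and 15.2 CPM in remaining WT cells, and to 348 and 231 CPM in dCD.

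The promoters of these genes are shown because 9 of these genes were higher in dCD. In the 250 bases before the start site (RefSeq, GRCm38.p6, the first listed start of each gene), the letters CACGTG, an E-box that reads the same on both strands, occurred in 10 of the 16 promoters (62.5%), in 6.05% of all 27025 promoters, in 8.92% of the 8543 measured genes with a promoter and in 9.40% of the 564 that were 2-fold higher. Among the 9 higher genes 6 held it. The letters TCCCGC, searched on both strands and known as a site of the E2F6 type, occurred in 6 of the 16 (37.5%), in 16.9% of all promoters and in 32.2% of those of measured genes. The *Stra8* stretch held neither, but it precedes the RefSeq start, which lies inside the gene as GENCODE M21 places it above, so the bases before the GENCODE start were not searched. Capitals mark both motifs in the sequences of *Hormad1* (chr3:95559427-95559676, plus strand), *Sycp3* (chr10:88459337-88459586, plus strand) and *Stra8* (chr6:34920698-34920947, plus strand).
Hormad1: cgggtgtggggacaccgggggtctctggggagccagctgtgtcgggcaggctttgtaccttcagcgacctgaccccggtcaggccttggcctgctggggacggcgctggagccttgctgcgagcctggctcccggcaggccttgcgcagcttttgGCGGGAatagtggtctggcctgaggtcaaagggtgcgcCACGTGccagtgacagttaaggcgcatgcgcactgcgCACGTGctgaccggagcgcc
Sycp3: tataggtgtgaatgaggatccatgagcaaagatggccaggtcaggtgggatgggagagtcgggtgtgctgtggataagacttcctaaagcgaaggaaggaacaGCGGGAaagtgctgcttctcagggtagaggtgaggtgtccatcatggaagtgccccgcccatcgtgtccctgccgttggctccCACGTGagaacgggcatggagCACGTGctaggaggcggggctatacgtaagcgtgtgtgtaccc
Stra8: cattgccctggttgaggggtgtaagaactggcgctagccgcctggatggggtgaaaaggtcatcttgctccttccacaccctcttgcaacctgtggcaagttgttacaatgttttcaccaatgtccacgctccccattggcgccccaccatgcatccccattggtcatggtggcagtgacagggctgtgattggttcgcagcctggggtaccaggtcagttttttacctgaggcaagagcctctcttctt
A match of letters is a description of the sequence and does not show that a factor binds there. In the 18 glycolysis promoters the core letters of a hypoxia response element, ACGTG on either strand, occurred in 6 (33.3%), against 16.6% of all promoters and 22.9% of those of measured genes; matches can overlap CACGTG.

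PGC genes gave a mixed picture. *Nanos3* was among the 12 genes with the lowest ratio of dCD over WT, at 52.7 CPM (89 UMIs) in WT and 7.66 CPM (36 UMIs) in dCD, 6.88 times lower (4.62 to 10.4). Only 11 of its 89 WT UMIs came from the 12 cells rich in mesoderm UMIs. *Dppa3* was at 49.7 and 21.1 CPM, and *Tfap2c* at 142 and 70.9 CPM, just short of the 2-fold rule on the scale with a pseudocount. *Dnd1*, an RNA-binding protein of germ cells, was higher in dCD, at 5.33 CPM (9 UMIs) and 16.4 CPM, and so was *Prdm1*, at 4.15 CPM (7 UMIs) and 8.73 CPM. *Nanos3*, *Prdm1* and *Dnd1* were part of the rule, so their levels are a description. Of 8 measured genes of the list 2 were lower and 1 higher, against 2.27% and 6.83% of all genes, but *Nanos3* and *Dnd1* are genes of the rule. Without the cells rich in mesoderm UMIs 3 were lower, with *Tfap2c* at 152 and 70.3 CPM, and 1 higher.

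The PGCLC genes of the study, which were chosen on another cell line, had a median log2 ratio of −0.01 in the naive-like cells. Of 376 measured, 21 were lower and 28 higher by 2-fold, against 2.27% and 6.83% of all genes. Of the 206 measured genes for which the study lists a PGCLC enhancer, 15 were lower and 9 higher, with a median of −0.04. Of the 170 without one, 6 were lower and 19 higher, with a median of 0.004. Among the cells that were not rich in mesoderm UMIs, 28 of 374 PGCLC genes were lower and 24 higher. There the counts were 18 and 10 of 206 with an enhancer, and 10 and 14 of 168 without. In the remaining cells the median of the 386 genes was 0.65. Among the lowest were *Pdzd4* (52.1 and 10.6 CPM), *Epp13* (37.3 and 8.52 CPM) and *Syk*, a tyrosine kinase (26.6 and 8.30 CPM). Among the highest were *Cox7a1*, a cytochrome oxidase subunit (24.3 and 132 CPM), *Ankrd37* (5.33 and 25.1 CPM), *Rpl39l*, a ribosomal protein of the germline (39.7 and 153 CPM), and *Fam25c* (58.6 and 187 CPM).

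*Car2*, which encodes carbonic anhydrase 2 (chr3:14886273-14900770, GRCm38), had the lowest ratio of dCD over WT relative to the ratio in the remaining cells. It had 194 UMIs in WT naive-like cells (114.9 CPM, interval 99.3 to 132) and 22 in dCD (4.68 CPM, 2.93 to 7.09), 24.5 times lower (15.8 to 40.1). It was detected in 61 of 100 WT and 16 of 273 dCD cells, with at most 23 UMIs in a WT cell, and only 28 of the 194 WT UMIs came from cells rich in mesoderm UMIs. In the remaining cells it stood at 22.5 CPM in WT and 22.3 in dCD. In the 180 dCD cells without excess chromosome 6 it was at 6.29 CPM. *Fgfbp1*, a carrier of secreted FGF, was also lower in naive-like cells alone, at 32.0 and 5.54 CPM in naive-like cells and 1.80 and 3.68 CPM in remaining cells.

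Most of the other large differences on the lower side rested on few WT cells. The 12 genes with the lowest ratio were *H19*, *Cdkn1c*, *Car2*, *Phlda2*, *Igf2*, *Msx1*, *Col1a1*, *Pitx1*, *Nanos3*, *Capn6*, *Unc5c* and *Fgfbp1*. *H19*, an imprinted noncoding RNA, had 60 UMIs in WT and 1 in dCD, and 40 of the 60 came from 1 cell. It was still detected in 18 of 100 WT and 1 of 273 dCD cells. Of its WT UMIs, 59 lay outside the 12 cells rich in mesoderm UMIs. *Cdkn1c*, an imprinted inhibitor of the cell cycle, was at 74.0 and 2.13 CPM, and 114 of its 125 WT UMIs came from the 12 cells rich in mesoderm UMIs, 66 of them from 1 cell. Without those cells it was at 8.06 and 1.37 CPM. *Igf2*, the imprinted growth factor, was at 96.5 and 6.17 CPM, with 139 of 163 WT UMIs in the 12 cells, and at 17.6 and 1.15 CPM without them. *Pitx1* differed little without them, with 39 of 41 WT UMIs in the 12 cells and 1.47 and 1.604 CPM in the others.

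**Figure D3:**
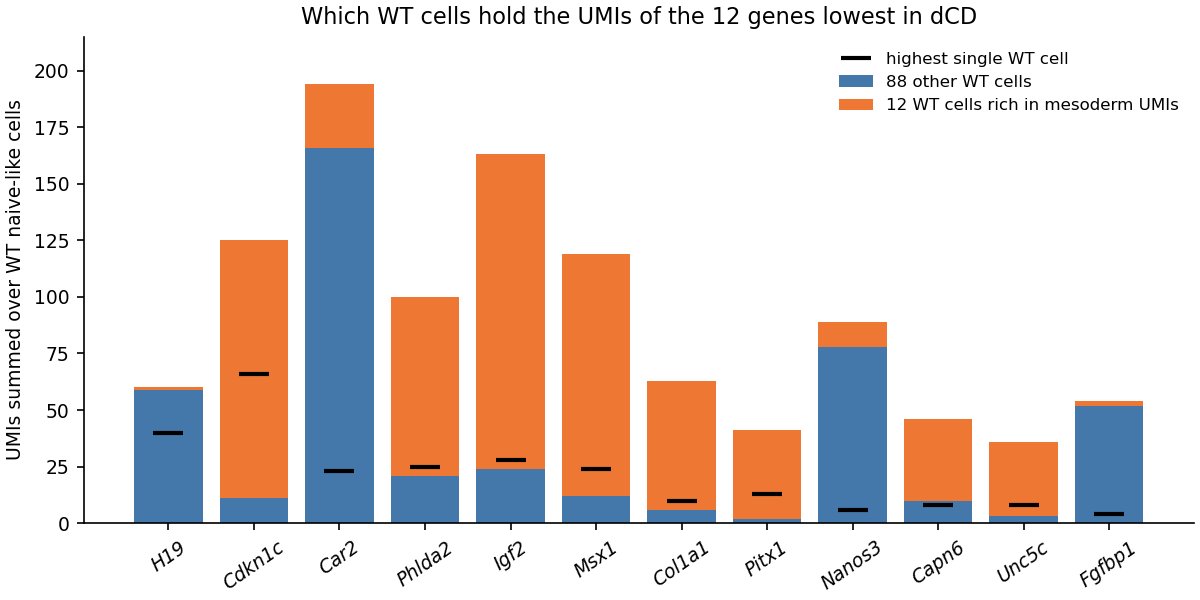
UMIs of the 12 genes with the lowest ratio of dCD over WT, summed over the 100 WT naive-like cells (y axis), split into the 12 cells rich in mesoderm UMIs and the other 88; the black dash is the highest single cell. The bars of *Car2*, *Nanos3* and *Fgfbp1* come mainly from the 88 cells, and those of *Cdkn1c*, *Igf2* and *Msx1* mainly from the 12. For *H19*, 59 of the 60 UMIs lie in the 88 cells, 40 of them in 1 cell.

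The mesoderm list differed with these cells. Of its 9 measured genes 6 were at least 2-fold lower in dCD naive-like cells, against 2.27% of all genes, with a median log2 ratio of −2.21, and the list summed to 368 CPM in WT and 149 in dCD. In the remaining cells, where the mesoderm-like cells lie, it summed to 2647 and 745 CPM. Without the cells rich in mesoderm UMIs the sums in naive-like cells were 152 and 91.9 CPM, and 1 of 3 measured genes was lower. *Hand1* was at 74.6 CPM in WT naive-like cells, 11.1% of its level in remaining WT cells, and *Col1a1* at 37.3 CPM, 9.85% of it. The part of free RNA and of cells captured together in these values was not tested.

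The imprinted genes followed the same split. Of 21 measured, 7 were at least 2-fold lower and 0 higher, against 2.27% and 6.83% of all genes, with a median log2 ratio of −0.77 and sums of 2344 and 1371 CPM. The 12 WT cells rich in mesoderm UMIs held 1670 of the 3958 WT UMIs of the list. Without them 5 of 18 were lower and 2 higher, the median was −0.26 and the sums were 1677 and 1269 CPM. *Peg3*, a paternally expressed zinc finger gene, remained past 2-fold, at 262 and 81.3 CPM with all cells and 111 and 49.3 CPM without. *Mest* did so too, at 148 and 61.7 CPM and then 74.7 and 33.4 CPM. *Nnat* did not, at 8.79 and 8.02 CPM without those cells. *Kcnq1ot1* (381 and 400 CPM) had a ratio whose interval included 1, and *Meg3* (510 and 288 CPM) was lower by less than 2-fold.

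**Figure D4:**
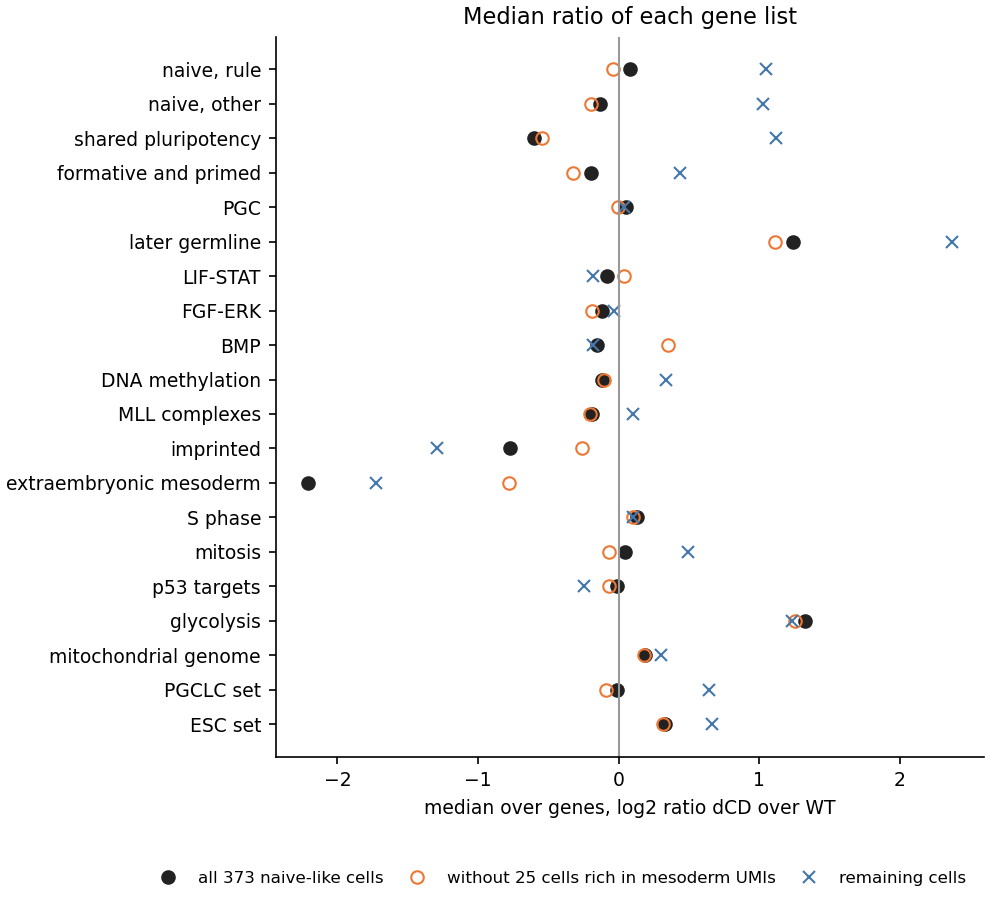
Median log2 ratio of dCD over WT (x axis) for each gene list (y axis) in all 373 naive-like cells (filled), in naive-like cells without the 25 rich in mesoderm UMIs (open) and in the remaining cells (crosses). Glycolysis (1.33, 1.26 and 1.23) and later germline genes (1.24, 1.12 and 2.37) are right of 0 in every set of cells, whereas the imprinted median moves from −0.77 to −0.26 without the 25 cells.

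The genes with the highest ratio of dCD over WT were mostly detected in many cells. After *Stra8* they included *1700013H16Rik* on the X chromosome, with 0 UMIs in WT and 190 in dCD (40.4 CPM, at least 22.8 times higher against 3 counts), found in 64 of 273 dCD cells. *Rhox1*, a homeobox gene of the X-linked reproductive cluster, had 0 and 80 UMIs, and *Xlr3b* and *Fthl17c*, further X-linked genes, 0 and 57 and 3 and 170 UMIs. *Tuba3a*, a testis tubulin on chromosome 6, was at 5.92 and 110 CPM and was detected in 10.0% and 61.2% of the cells. *Ndufa4l2*, a mitochondrial protein known as a target of hypoxia signalling, was at 1.18 CPM (2 UMIs) and 33.8 CPM. *Cidea*, of lipid droplets, had 1 and 88 UMIs (ratio 31.6, 5.53 to 1263). *Shisa8* and *1700108F19Rik* had 0 UMIs in WT and 80 and 95 in dCD. These X-linked and testis genes were higher in the remaining cells too, with log2 ratios of 3.90 for *1700013H16Rik* and 4.64 for *Tuba3a*.

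Ratios that differed between naive-like and remaining cells named genes on both sides. Of 10695 genes measured in both, 581 (5.43%) had a dCD over WT ratio at least 2-fold lower, and 552 (5.16%) at least 2-fold higher, in naive-like than in remaining cells. On the lower side stood *Car2*, *Rasgrp2*, *Zfp978*, *Ebf1* and *Fgfbp1*. *Rasgrp2*, an exchange factor for Rap, was at 214 CPM in WT and 96.6 in dCD naive-like cells and at 5.71 and 34.7 CPM in remaining cells. On the higher side stood *Gprc5a*, *Sfrp1*, *Kdelr3*, *Shisa8* and *Mras*. *Gprc5a*, an orphan receptor, was at 0.59 CPM (1 UMI) and 16.8 CPM in naive-like cells and at 5.71 and 5.22 CPM in remaining cells, and *Mras*, a Ras family GTPase, at 9.48 and 53.6 CPM against 10.0 and 7.97. The remaining cells held 17 WT and 55 dCD cells just outside the rule by their number of markers, and the part of such cells in these ratios was not tested.

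**Figure D5:**
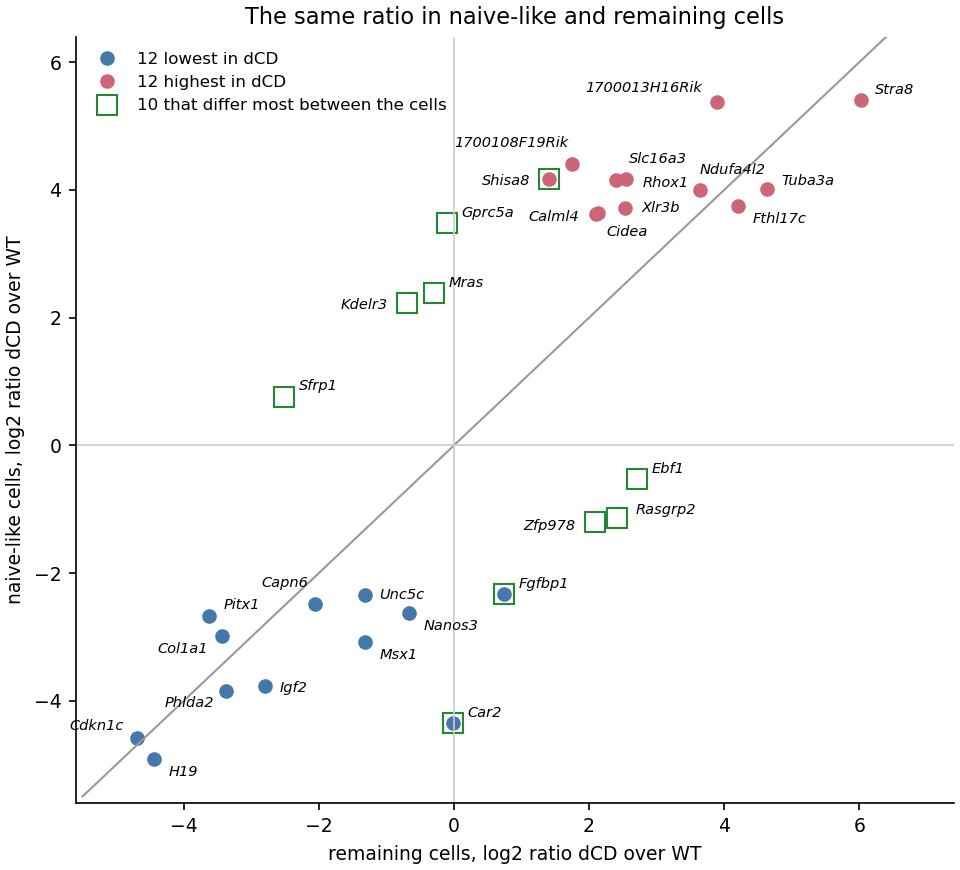
Log2 ratio of dCD over WT in remaining cells (x axis) and in naive-like cells (y axis) for the 12 genes lowest and the 12 highest in dCD and the 10 genes whose ratios differ most between the classes (squares); the line marks equal ratios. *Car2* lies at −4.35 in naive-like and −0.01 in remaining cells, while *Stra8* is high in both (5.41 and 6.02).

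Among signalling and chromatin lists, the FGF and ERK genes had the most members past 2-fold. Of 9 measured LIF and STAT3 genes 0 were 2-fold lower or higher, with *Lifr*, the LIF receptor, at 42.1 and 42.4 CPM and *Socs3*, a STAT3 target, at 41.5 and 47.1 CPM. Of 14 FGF and ERK genes 3 were lower and 1 higher, against 2.27% and 6.83% of all genes, and the counts were the same without the cells rich in mesoderm UMIs. *Spry2*, a feedback inhibitor of the pathway, was at 94.2 and 43.9 CPM and *Dusp4*, an ERK phosphatase, at 21.3 and 6.39 CPM, whereas *Etv4* (46.8 and 51.7 CPM), *Spry4* (36.7 and 33.6 CPM) and *Etv5* (144 and 118 CPM) were within 2-fold. Of 12 BMP genes 1 was lower, *Msx1*, at 70.5 and 7.45 CPM, with 107 of its 119 WT UMIs in the 12 cells rich in mesoderm UMIs. Without those 25 cells 0 of 11 BMP genes were lower and 2 higher, and the median log2 ratio of the list was 0.35 instead of −0.16. Of 10 DNA methylation genes 0 were lower and 1 higher, the oxidase gene *Tet3* at 7.11 CPM (12 UMIs) and 16.8 CPM, while *Tet1* (396 and 373 CPM) and *Dnmt1* (250 and 193 CPM) were within 2-fold. Without the 25 cells 2 were lower, *Dnmt3b* at 89.4 and 42.6 CPM and *Dnmt3l* at 71.8 and 29.8 CPM, and 1 higher.

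Among 13 measured genes of the MLL complexes 1 was lower and 0 higher, against 2.27% and 6.83% of all genes. This was *Kdm6a* (UTX), the X-linked H3K27 demethylase that sits in the complexes of MLL3 and MLL4, at 64.0 CPM (52.5 to 77.2) in WT and 30.9 (26.1 to 36.3) in dCD, 2.07 times lower. It was at 37.8 and 39.2 CPM in the remaining cells. *Setd1b* was at 64.6 and 33.2 CPM, just within 2-fold, and *Paxip1*, which encodes another partner of MLL3 and MLL4, at 37.9 and 39.2 CPM. Of 15 S phase and 15 mitosis genes 0 were 2-fold lower or higher, and their sums differed by factors of 1.09 (1.04 to 1.13) and 1.01 (0.98 to 1.04). Of 12 p53 targets 1 was lower, against 2.27% of all genes. Without the 25 cells rich in mesoderm UMIs 1 was lower and 1 higher.

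The lists of other lineages had few measured genes, and several of their counts rested on those 25 cells. Against 2.27% of all genes lower and 6.83% higher, 1 of 9 extraembryonic ectoderm genes was lower and 2 higher (*Rhox6* and *Rhox9*), and 1 of 7 lower and 3 higher without the 25 cells. Of 3 measured gut endoderm genes 2 were lower, while the whole list summed to 195 CPM in WT and 256 in dCD. Without the 25 cells 1 was lower and 1 higher, and *Gata6*, an endoderm factor, had 26 of its 28 WT UMIs in the 12 WT cells. Of 3 trophoblast giant cell genes 2 were lower, and 2 of 2 without the 25 cells. The 1 measured streak mesoderm gene, *Snai1*, was at 7.11 and 2.13 CPM, but 11 of its 12 WT UMIs came from the 12 cells, and it was too low to be measured without them. Of 4 neural genes 1 was higher, and 1 of 1 without the 25 cells, and of 2 endothelial genes 0 were past 2-fold either way.

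Near neighbours of a naive-like cell came mostly from its own library when the genes of the rule were not used. Among the 20 nearest neighbours of a WT naive-like cell, on 20 principal components of 2000 variable genes, 69.5% on average were other WT naive-like cells, 14.1% WT PGC marker cells and 4.15% dCD naive-like cells, which made up 8.77% of all cells. With 50 neighbours the dCD naive-like share was 11.1%, above their share of all cells, so it passed that mark with the number of neighbours. For a dCD naive-like cell, 68.2% were dCD naive-like cells, 10.8% dCD PGC marker cells and 1.83% WT naive-like cells, which made up 3.21% of all cells. The neighbours of dCD naive-like cells included 18.2% dCD cells that were not naive-like, PGC marker or 2-cell-like cells. Around WT naive-like cells, 9.40% were WT cells of this kind. Library and genotype cannot be told apart here.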

How the data were processed

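UMI counts per gene and cell were used as deposited by the authors (mm10, with a floor of 2000 detected genes a cell); the aligner for these libraries is not given in the sources used here. The table held 32285 genes with 20586629 WT and 22887974 dCD UMIs, and 0 columns of samples were left unused. Members and gene lists were chosen with earlier results of these data known. Cells were selected by the rule given above. UMIs were summed per class and library, and log2 ratios used a pseudocount of 1 CPM on genes with at least 20 UMIs. Named genes were those of the rule and the lists, the 12 genes lowest and highest in dCD among those with at least 50 UMIs whose interval excluded 1, the 5 on each side whose ratio differed most from the remaining cells, 12 leading naive-like genes, and the 5 PGCLC genes lowest and highest. Intervals and floors of 3 counts cover counting error only. Doublets were called with Scrublet in scanpy 1.11.5 and kept. Scaling by edgeR 4.0.16 and by DESeq2 1.42.0 were alternatives, used for size factors alone. In simulated counts with 4-fold changes, 100 of 100 raised and 95 of 100 lowered genes came back within 0.5 log2 units. The changed genes were drawn only from genes well above the minimum of 20 UMIs. The simulation held counting error alone, without spread between cells, so recovery near that minimum was not examined. Of 10536 unchanged genes, 136 came out past 2-fold. The E14Tg2a table was not used here, so the planned comparison with its cells was not made.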

Additional observations from a re-analysis of the deposited data

Results flagged for a closer look

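In 9 genes with at least 50 UMIs in both classes, the dCD over WT ratio was 2-fold or more in opposite directions in naive-like and remaining cells. The difference itself was not tested, since each genotype had 1 library. *Rasgrp2* had a log2 ratio of −1.14 in naive-like and 2.41 in remaining cells, *Zfp978* −1.20 and 2.08, *EU599041* −1.38 and 1.6, *Tcea3* −1.22 and 1.08, and *Dab1* −1.19 and 1.11. These 5 genes were lower in dCD naive-like cells and higher in the remaining dCD cells. The other 4 went the opposite way. *Tagln*, an actin-binding protein of smooth muscle, had 1.06 and −1.61, *Vat1* 1.5 and −1.03, *Tubb2a* 1.18 and −1.01, and *Gm13889* 1.53 and −1.13.

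*Tcea3*, an elongation factor that is abundant in ESC, rested on the most UMIs of these, 436 in WT and 517 in dCD naive-like cells (258 and 110 CPM), and stood at 19.5 and 42.2 CPM in remaining cells. *Gm13889* had 6 UMIs in WT naive-like cells, the fewest.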

How the results depend on the processing

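Counting error and 1 library per genotype limit all values. No paired analysis was possible because each genotype had 1 library without a replicate number, which also left no replicate to leave out. Over 14 alternatives, the count of lower genes was 123 and of higher genes 247 with a pseudocount of 5 CPM, and 78 and 224 among genes with at least 100 UMIs. The other counts were within 1.5 times, and scaling by edgeR or DESeq2 moved the median of all genes by less than 0.1.

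The naive-like share of WT was 5.01% with 4 of the 6 markers required, 2.33% with none of 4 PGC genes detected and 3.88% with cells thinned to a common depth. In dCD it was 11.8%, 8.12% and 9.61% under the same choices, 14.1% with 5 *Zfp42* UMIs and 19.3% with 2 markers. With 50 neighbours, 11.1% of the neighbours of WT naive-like cells were dCD naive-like cells, against 4.15% with 20 and 8.77% of all cells. Leaving out the cells rich in mesoderm UMIs and those with excess chromosome 6 or 8 were chosen after seeing the data. The first moved the imprinted median to −0.26 and turned *Gata6*, with 2 WT UMIs left, from −1.29 to 1.29. No other named gene past 2-fold changed sign where at least 20 UMIs were left. *Pitx1*, below that count without the cells rich in mesoderm UMIs, was at 1.47 CPM in WT and 1.604 in dCD. Over all 14 alternatives the list medians were −0.19 to −0.12 for the other naive genes, 1.08 to 1.36 for glycolysis, 1.07 to 1.85 for later germline genes and −0.09 to 0.03 for PGCLC genes.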

Other observations

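The genes past 2-fold were not spread evenly over the chromosomes. The share at least 2-fold higher in dCD naive-like cells was 12.6% for chromosome 6 (61 of 485 measured genes) and 11.02% for the X (41 of 372), against 6.83% of all genes. The X also held 15 lower genes (4.03%), against 2.27%. Among the 12 genes highest in dCD were the X-linked *1700013H16Rik*, *Rhox1*, *Xlr3b* and *Fthl17c*.

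The excess of chromosome 6 in 93 dCD naive-like cells covered the chromosome from end to end. The median gene was 1.253, 1.30 and 1.28 times higher than in the other 180 cells over the spans from 0 to 50, 50 to 100 and 100 to 150 Mb, and 0.997 times on the other chromosomes. In the 93 cells *Gapdh* stood at 5333 CPM and *Nanog* at 370 CPM, against 3648 and 257 CPM in the 180. *Ldha*, on chromosome 7, was at 966 and 1007 CPM. The 93 cells were chosen by the summed share of these same chromosome 6 genes, so a higher sum over the chromosome was set by that choice. How the excess was divided among the spans was not set by it. The copy number of chromosome 6 was not measured here.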
